A study of Arabidopsis thaliana with 5 samples.

Results

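Arabidopsis thaliana seedlings of the Col-0 ecotype were kept in air and sampled whole at 0 and at 240 min, and the 2 samples are compared here. They were chosen by their labels, as 2 of the 5 arrays of a study of hypoxia, and neither was deprived of oxygen. All 5 samples came from plants raised on upright agar plates until 14 days old, under 16 h of daily light at 22 °C. The other 3 arrays hold seedlings kept for 30, 60 or 240 min in plastic bags under gas with 0.2% oxygen and 99.8% nitrogen. The sources used here do not state whether the air seedlings were put in bags, the hour of the day at each sampling or the number of plants in a sample. Time spent in air, hour of the day and handling therefore cannot be told apart.

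The comparison asks how far seedlings in ambient air differ after 240 min, the air samples being the study's controls for hypoxia. In light-grown plants, many transcripts follow the circadian clock, light and the supply of sugar over a few hours, and others answer to handling and to temperature. The low-oxygen core genes are transcripts that plant cells generally accumulate when oxygen is short, through ERF transcription factors whose stability depends on oxygen. Among them, pyruvate decarboxylase opens the route from pyruvate to ethanol, which regenerates NAD+ when respiration is limited. Some of these transcripts are also known to respond to sugar starvation.

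With 1 array at each time, every value below is a difference between 2 arrays on the log2 scale, 240 min minus 0 min, with no replicate error and no p-value. A probe set is a group of short probes on the array that reads 1 transcript or a few alike. A difference of 1 is 2-fold, and a probe set is at level where it reached the array's median of 5.13 on at least 1 of the 2 air arrays. This held for 4441 of the 8247 probe sets that are not controls. Whole seedlings were read, so that fewer cells of a type and less RNA per cell cannot be told apart. Only 45.9% of the probe sets could be given a gene name here, covering 3592 genes, of which 1331 lie on chromosome 2 and 1145 on chromosome 4.

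The 2 air arrays were close to each other. At 94.3% of the probe sets at level the difference was under 0.5 in size. The median difference was 0 and the SD across probe sets, which is not a replicate error, was 0.27. By count, 2003 probe sets were above 0, 2174 below it and 264 read exactly the same on both arrays. The air arrays differed by 1 or more at 25 probe sets, or 0.563% of those at level, with 15 higher (0.338%) and 10 lower (0.225%) at 240 min. By 0.5 or more they differed at 252 probe sets (5.67%), with 117 higher (2.63%) and 135 lower (3.04%). In the other 9 pairs of the 5 arrays between 165 and 974 probe sets differed by 1 or more, or 3.65% to 20.4%. With 25 such probe sets, the air pair was the most alike of the 10. The pair with the next fewest, 165, was 60 min of hypoxia with 240 min of air.

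**Figure D1:**
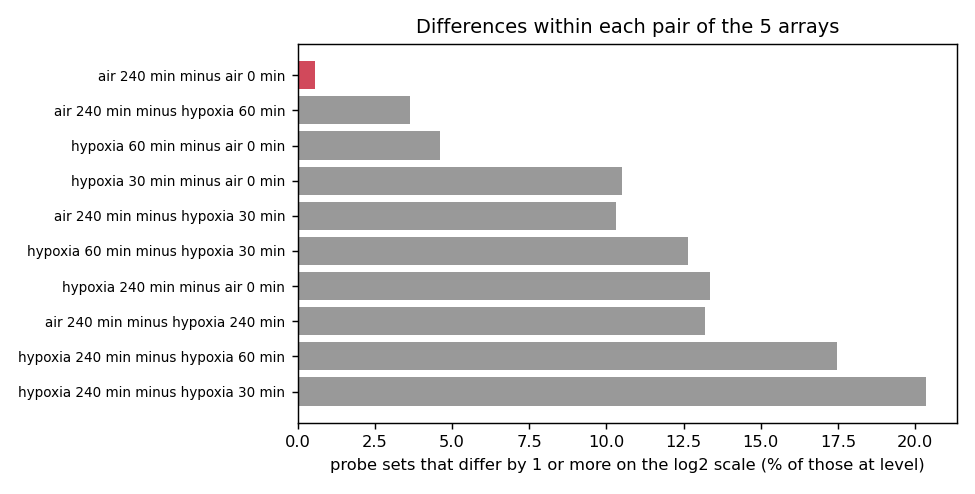
Share of probe sets (percent of those at level in the pair, horizontal axis) that differed by 1 or more on the log2 scale, for each of the 10 pairs of arrays, ordered by the SD of the difference. The air pair, in red, has the shortest bar at 0.563%, and the 30 and 240 min hypoxic arrays the longest at 20.4%.

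The brightest named transcripts, many of them photosynthetic, differed little between the air arrays, as did most probe sets. The 10 named genes with the highest readings lay between 12.90 and 14.47 in air, and their differences ran from −0.16 (ECS1) to 0.32 (PSBY). RCA, which encodes Rubisco activase, read 14.35 and 14.47. PSBW, a small subunit of photosystem II, read 14.29 and 14.24, and the light-harvesting gene LHCB4.1 read 14.02 and 13.99. Of 9 measured photosynthesis genes of 55 listed, 0 differed by 0.5 or more, beside 5.67% of all probe sets at level, so the count does not set them apart. Their median was 0.04, against 0 over all 1773 named genes at level. The Calvin cycle gene SBPASE was the furthest from 0 among them, at 8.83 and 9.09, a difference of 0.26. It was followed by RCA at 0.11 and by PSAE-1, a photosystem I subunit gene, at −0.10 (−0.08 and 0.40 at its other probe sets). PORB, of chlorophyll synthesis, differed by 0.06. The shoot's defining transcripts were thus present in both samples, while named probe sets covered 0 of 19 root markers, 0 of 4 guard cell and trichome markers and 0 of 10 seed storage genes, so the share of other tissues was not tested.

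Among low-oxygen core genes, 3 were among the few that stood higher after 240 min in air. AT4G27450 encodes an aluminium-induced protein with YGL and LRDR motifs. It read 8.99 at 0 min and 10.35 at 240 min in air, a difference of 1.36 (2.56-fold). On the hypoxic arrays it read 7.79, 11.81 and 6.79 at 30, 60 and 240 min, so both air values lay inside the range of the hypoxic ones.

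AT4G33560, annotated as a wound-responsive family protein, read 7.30 at 0 min and 8.63 at 240 min in air, a difference of 1.33 (2.51-fold). Its readings in hypoxia were 5.87, 8.48 and 4.64 at 30, 60 and 240 min. The 240 min air array was the highest of the 5 for this gene, although it had spent no time in low oxygen. PDC2, a pyruvate decarboxylase gene, read 5.78 and 6.94 in air, a difference of 1.16 (2.24-fold). In hypoxia it read 5.62, 7.85 and 5.46, so that only the 60 min hypoxic array exceeded 240 min of air.

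Of the 42 low-oxygen genes listed, 6 were measured, 5 of them at level. Of those 5, AT4G27450, AT4G33560 and PDC2 stood higher by at least 0.5 and 0 stood lower, beside 2.63% higher and 3.04% lower over all probe sets at level. The median of the 6 was 0.78, and of the 5 at level 1.16. The list was written with these values known, so the counts are a description only. The other members were closer to their first reading. AT4G17260, a lactate dehydrogenase gene, read 5.08 and 5.48, a difference of 0.40. AT2G17850 differed by 0.29 and AT4G17670 by −0.11, both with readings near or under the array's median.

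Transcripts linked with carbon supply were represented by few genes. AT3G15450, a second member of the aluminium-induced family and a gene known to be repressed by sugar, read 10.97 and 12.12 in air, a difference of 1.15 (2.21-fold). It was 11.70, 13.43 and 9.38 at 30, 60 and 240 min of hypoxia, and was the brightest of the named genes that differed by 1 or more. Of that family's 5 listed genes these 2 were measured, and both were higher by over 1, beside 0.338% of all probe sets at level. The family was listed with their values known, so the count restates the 2 genes, and AT4G27450 is also counted under low oxygen. The remaining sugar starvation genes did not share its size of difference. EXO, a gene of brassinosteroid-promoted growth that also answers to carbon status, read 6.02 and 5.60, a difference of −0.42. MCCA, of leucine breakdown, differed by 0.23, ETFQO by 0.09, MCCB by 0.07 and D2HGDH by −0.03, the last 3 with dim readings. The median of the 6 measured of 31 listed was 0.08. Of the 3 at level, 1 was higher by 0.5 or more and 0 were lower, beside 2.63% and 3.04% of all probe sets at level. Of the starch genes, SBE2.2, a branching enzyme gene, differed by −0.17, PWD, which phosphorylates starch for its breakdown, by −0.01, and the dim APL3 by 0.

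A further 3 named genes were higher by 1 or more. AT2G16586 read 7.24 at 0 min of air, the lowest of the 5 arrays, and 8.57 at 240 min, a difference of 1.32 (2.50-fold). In hypoxia it read 8.31, 9.60 and 8.17, so that the 60 min hypoxic array was the highest. AT4G32480, of the DUF506 family, read 8.55 and 9.71, a difference of 1.17 (2.25-fold), with 8.67, 9.33 and 6.30 in hypoxia, and was highest at 240 min of air. AT1G03220, annotated as an aspartyl protease family protein, read 9.20 and 10.23, a difference of 1.03 (2.05-fold), with 11.59, 11.30 and 6.55 in hypoxia. Here the air values lay between the 2 early hypoxic readings and the late one.

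STOMAGEN was the named gene furthest below its first reading. It encodes a secreted peptide, made in the inner leaf tissue, that promotes the formation of stomata. It read 6.82 at 0 min and 4.99 at 240 min in air, a difference of −1.84, which is 3.57-fold lower. In hypoxia it read 5.59, 7.14 and 6.33 at 30, 60 and 240 min. The 240 min air array was the lowest of the 5 and lay under the array's median of 5.13, where RMA values are compressed. STOMAGEN was the only measured gene of 15 listed for stomatal development.

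A cytosolic HSP70 gene was next. AT3G09440 read 9.15 and 7.89 in air, a difference of −1.26 (2.40-fold lower), and 10.19, 6.88 and 9.11 at 30, 60 and 240 min of hypoxia. Its second, dimmer probe set differed by −0.41. HSP70 genes are closely alike, and whether these probes also read a relative was not tested. Of the other measured chaperone genes, all with low readings, AT2G29500 differed by −0.37, Hsp70-2 by −0.14, AT1G53540 by 0.01 and ATHSP22.0 by 0.25. Of the 5 measured of 18 listed, 2 were at level, and of these AT3G09440 was lower by 0.5 or more, beside 3.04% of all probe sets at level. The median of the 5 was −0.14, and of the 2 at level −0.63.

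AT4G24340, of the phosphorylase superfamily, read 7.35 and 6.29, a difference of −1.06 (2.08-fold lower), and 7.40, 6.63 and 6.43 in hypoxia. The probe set behind this value, 15531_i_at, is marked i, for incomplete probes. Its second probe set read near the floor and differed by −0.40. EXPA8, which encodes an expansin that loosens cell walls, came just short of 1. It read 8.59 at 0 min of air, the highest of the 5 arrays, and 7.67 at 240 min, a difference of −0.92. In hypoxia it read 7.06, 8.07 and 7.55. The other listed expansins and xyloglucan endotransglucosylases were nearer to 0, with EXPA15 at −0.22, EXPA4 at 0 and XTH33 at 0.22. Over these 4 of 31 genes the median was −0.11. Of the 3 at level, EXPA8 was lower by 0.5 or more and 0 were higher, beside 3.04% and 2.63% of all probe sets at level.

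**Figure D2:**
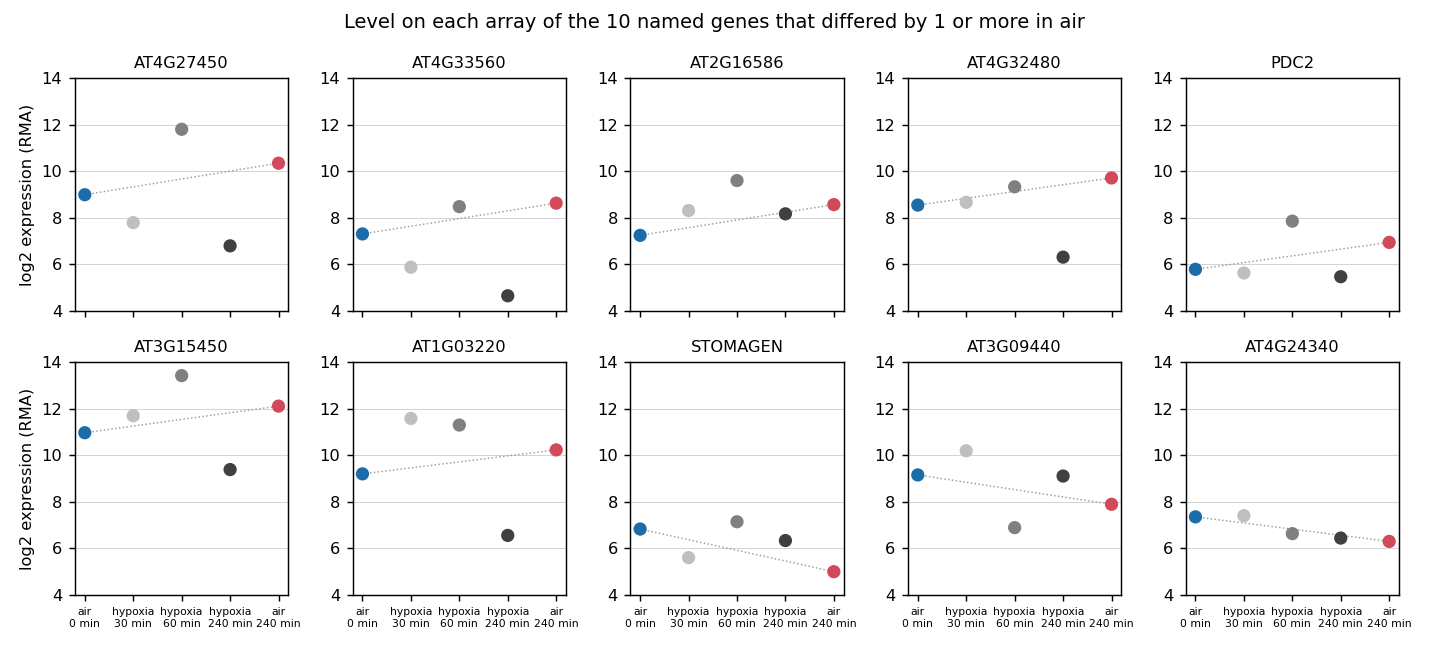
Log2 expression (RMA, vertical axis) of the 10 named genes that differed by 1 or more in air, on each of the 5 arrays (1 point an array; air at 0 min blue, air at 240 min red, hypoxia grey). The dotted line only joins the air arrays: AT4G27450 goes from 8.99 to 10.35 and STOMAGEN from 6.82 to 4.99, and the 3 hypoxic readings of AT4G27450 run from 6.79 to 11.81.

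Genes of the circadian clock were little represented and differed by less than 0.5. GI, which acts in the evening part of the clock and in flowering, was higher at all 4 of its probe sets, by 0.17, 0.28, 0.31 and 0.49. Its brightest probe set read 8.29 at 0 min and 8.60 at 240 min. CCL, whose transcript is under clock control and short-lived, differed by 0.22, reading 9.87 and 10.08. The photorespiration gene HPR differed by 0.33 and AT1G11860 by −0.30. The zinc finger gene STZ and the factor WRKY22 both differed by −0.17, WRKY6 by 0 and WRKY53 by 0.23, and 0 of these 4 of 19 listed stress genes reached 0.5 in size, beside 5.67% of all probe sets at level. Of the cold and drought genes, KIN2 differed by 0.34, LTI30 by −0.13 and COR15B by 0.02. COR47 differed by −0.32 at its brighter probe set and by 0.45 at the dimmer one. The replication gene PRL differed by 0.29.

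**Figure D3:**
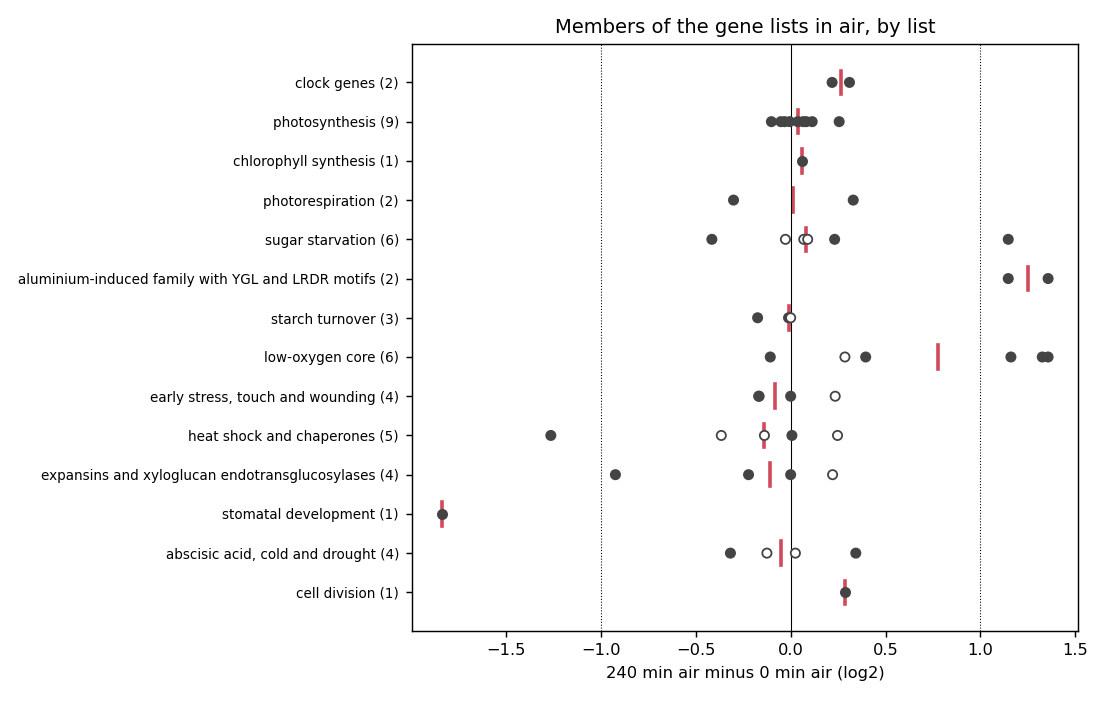
Difference between 240 and 0 min of air (log2, horizontal axis) for each measured member of the gene lists, with the number measured in brackets; filled points were at level on at least 1 air array, open points were not, and red bars mark medians. Photosynthesis genes cluster around 0.04, while the low-oxygen list spreads from −0.11 to 1.36 and STOMAGEN stands at −1.84.

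The 20 named genes most above at 240 min ran from 0.62 to 1.36, and 7 of them reached 1. The eighth, AT4G20820, of the berberine bridge enzyme family, read 6.59 and 7.54, a difference of 0.95, at a probe set also marked i. Its other 3 probe sets, all dim, differed by 0.34, 0.33 and −0.01. AT2G43530, of a defensin-like family, read 7.57 and 8.22, a difference of 0.64. WLIM2a, whose product binds actin filaments, read 5.30 and 5.94, a difference of 0.64, but was higher on all 3 hypoxic arrays, reaching 6.69 at 30 min and 6.34 at 240 min. The other 10 were dim, the brightest being AT2G25360 at 5.63 and 6.34. They are AT3G46800 (0.73), AT2G25360 (0.70), AT2G21630 (0.69), AT2G42640 (0.68), AT2G27420 (0.67), AT4G23490 (0.65), scpl46 (0.65), AT2G21380 (0.65), AT2G22730 (0.63) and AT4G23350 (0.62). Of the 20 genes, 11 were at level on both air arrays, and the rest passed the filter through the 240 min array alone. The probe sets numbered nearest to those of AT2G25360 and AT2G22730 were also above 0, with a median of 0.17 over 20 neighbours by number. The part of position on the array in these 2 values was not tested.

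The 20 named genes most below ran from −1.84 to −0.64, and 3 of them reached −1. Genes with clear readings at both times included AT5G27120, a NOP56-like gene of ribosome assembly, at 7.48 and 6.65, a difference of −0.83. AT2G04520, which encodes a translation initiation factor of the eIF1A kind, read 8.63 and 7.93, a difference of −0.69. AT5G64120, a class III peroxidase gene, read 9.31 and 8.65, a difference of −0.66, and AT5G49440 read 9.97 and 9.29, a difference of −0.68.

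The remaining genes of the lower side were dimmer. AT2G45120, of the C2H2 zinc finger family, read 6.15 and 5.28, a difference of −0.86, against 8.01 at 240 min of hypoxia. AT2G41090, a calmodulin-like gene, differed by −0.84, and AT1G52100, of the jacalin lectin family, by −0.77. The others are AT1G62190 (−0.81), AT4G21580 (−0.79), AT4G32350 (−0.76), M17 (−0.71), AT4G23820 (−0.71), AT4G38710 (−0.67), AT2G46540 (−0.66), AT1G60010 (−0.65) and AT2G42190 (−0.64). Of the 20, 13 were at level on both air arrays.

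**Figure D4:**
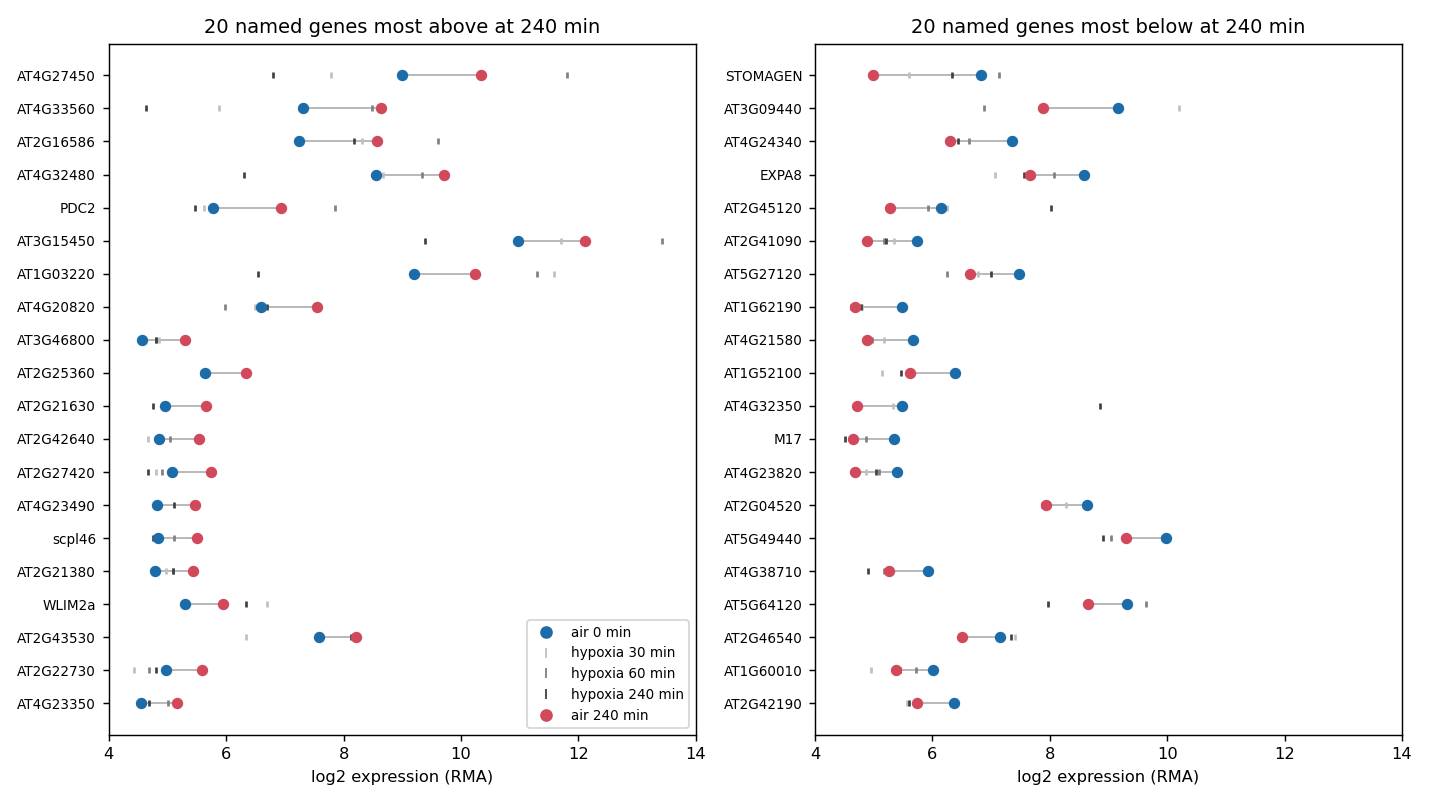
Log2 expression (RMA, horizontal axis) of the 20 named genes most above (left) and most below (right) at 240 min of air; circles are the air arrays at 0 min (blue) and 240 min (red), ticks the hypoxic arrays. The differences reach from 1.36 (AT4G27450) to −1.84 (STOMAGEN), and both sets were chosen by that difference.

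Genes beside the named genes that differed by 1 or more, where measured on the chromosome, differed by less than 0.5. So did 94.3% of all probe sets at level, so this does not set the neighbours apart. PORB, the gene next to AT4G27450, differed by 0.06. AT4G33550, next to AT4G33560, differed by 0.13, and AT4G32470, next to AT4G32480, by −0.20. On the 2 sides of AT1G03220, AT1G03210 differed by 0.01 and AT1G03230 by −0.17. GILT, next to STOMAGEN, differed by 0.03, while AT4G24330 and AT4G24350, on the 2 sides of AT4G24340, differed by −0.26 and 0.10.

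Most of the probe sets past 1 carry no gene name here, 8 of the 15 higher and 7 of the 10 lower. The 2 furthest above were 17920_s_at, which read 6.77 and 9.20 in air and 5.63, 9.89 and 4.81 in hypoxia, and 17832_at, which read 5.24 and 7.26 in air and 5.04, 9.04 and 4.67 in hypoxia. Their differences were 2.43 and 2.03. Both were highest on the 60 min hypoxic array and lowest at 240 min of hypoxia. Over all 15 higher probe sets, the 60 min hypoxic array was the highest of the 5 at 10 and the 240 min hypoxic array the lowest at 12. The same held for 19.6% and 31.9% of all probe sets at level.

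Of the lower probe sets, the furthest below was 13277_i_at, which read 9.55 at 0 min of air, 6.90 at 240 min of air and 5.50, 6.76 and 6.48 in hypoxia, a difference of −2.65. It was followed among those with no name by 19027_i_at, at 6.41 and 4.63 in air and 4.71, 4.70 and 4.70 in hypoxia, a difference of −1.78. At 6 of the 10 lower probe sets, all with no name, the 0 min air array was the highest of the 5, against 17.4% of all probe sets at level, but these were chosen for a high reading at 0 min relative to 240 min. Names marked i, f or r, which stand for probe sets with incomplete, shared or rule-breaking probes, made up 5 of the 10 lower and 0 of the 15 higher, against 5.20% of all at level. At 5 of the 10 lower probe sets only 1 air array was at level, while at all 15 higher ones both were.

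**Figure D5:**
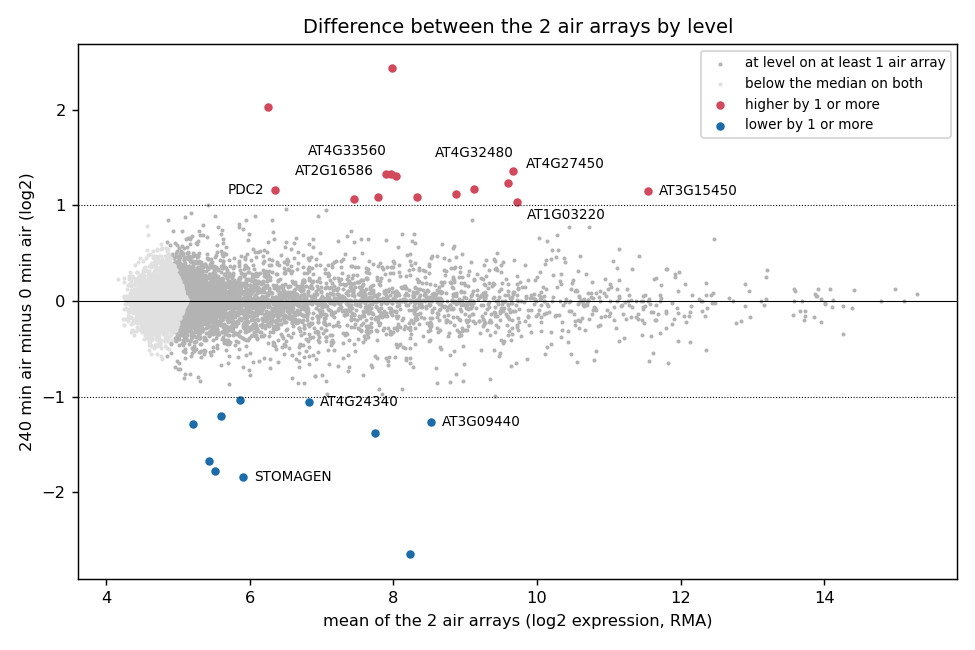
Difference between 240 and 0 min of air (log2, vertical axis) against the mean of the 2 air arrays (log2 expression, horizontal axis), 1 point a probe set; red and blue points are the 15 and 10 that differed by 1 or more, with named genes labelled. The higher ones lie at means of 6.25 to 11.5 and the lower ones at 5.21 to 8.52.

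Which air array serves as the reference changes how a hypoxic sample reads at these genes. The differences set side by side here share the hypoxic array, and each pair is apart by the air difference given above. STOMAGEN at 240 min of hypoxia was at −0.50 against 0 min air and at 1.34 against 240 min air, and at 30 min it was at −1.23 and 0.61. At 60 min it was above both, by 0.31 and 2.15. EXPA8 at 60 min of hypoxia was at −0.52 and 0.41, while at 30 min it was below both, at −1.53 and −0.61, and at 240 min too, at −1.04 and −0.11. The sign thus turned with the reference at 30 and 240 min for STOMAGEN and at 60 min for EXPA8.

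The sign also turned at some times for several of the higher genes. AT4G32480 at 60 min of hypoxia was at 0.79 against 0 min air and −0.38 against 240 min air, and at 30 min at 0.12 and −1.05. AT2G16586 was at 1.07 and −0.26 at 30 min, and at 0.93 and −0.40 at 240 min. AT3G15450 was at 0.73 and −0.42 at 30 min but at 2.46 and 1.31 at 60 min. PDC2 was above either reference at 60 min, by 2.07 and 0.91, and so was AT4G27450, by 2.82 and 1.46. AT4G33560 at 60 min was above 0 min air only, at 1.18 and −0.15. At 30 and 240 min of hypoxia PDC2, AT4G27450 and AT4G33560 were each below both references. PDC2, the nearest to 0, was at −0.16 and −1.32 at 30 min, and at −0.32 and −1.48 at 240 min. Across the probe sets at level in each pair, 207 (4.62%) differed by 1 or more between 60 min of hypoxia and 0 min of air, and 165 (3.65%) between 60 min of hypoxia and 240 min of air. The numbers were 479 and 477 at 30 min, and 621 and 619 at 240 min, which does not say whether they are the same probe sets.

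Readings that bear on the technical spread are few. Of the 62 named genes with several probe sets at level, 37 had differences of the same sign at all of them, with a median gap of 0.14 and a largest gap of 0.85 (AT3G09440). Of the 3 genes with a difference of 0.5 or more among these, namely AT3G09440, AT1G09500 and YAB3, all had the same sign at every probe set at level. The control probe sets were mostly above their first reading at 240 min of air, 39 of 50, with a median of 0.20. The 3 ubiquitin controls were higher by 0.40 to 0.48 and the 3 GAPDH controls by 0.34 to 0.41. The 9 BioB, BioC, BioDn and CreX controls for cRNA differed by −0.14 to 0.37, with 8 of them above 0 and a median of 0.26. The 3′ minus 5′ gap of GAPDH, which grows as RNA is degraded, was 0.57 at 0 min and 0.55 at 240 min. Probe sets that follow each other by number had correlated differences, with r = 0.22 over the whole array, and this was the largest value up to 100 places apart. Probe sets are not independent replicates, and the part of the control shift and of probe set order in the results was not tested. For the 25 probe sets past 1, the median difference of the 20 neighbours by number lay between −0.14 and 0.18.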

How the data were processed

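Biotin-labelled cRNA of the 5 samples was read on 1-colour Affymetrix arrays, per the labels. The authors deposited log2 values for 8297 probe sets and name RMA, per the submitters' processing notes; its software and settings: not given in the sources used here. RMA in general subtracts background, equalises the arrays' distributions and summarises probes. The number of arrays limits the precision. The 50 AFFX control probe sets were left out of the comparison. The platform annotation listed 3864 probe sets, 3794 with 1 gene and 70 with several; 3784 could be tied to a locus of RefSeq's TAIR10.1 table, used for names and gene order. The other 4383 are unnamed here. Differences were computed in Python 3.11.15 (pandas 2.3.3, numpy 2.4.6), and the counting was tried on simulated data. With 1 array a side no test was run.

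Named genes are the 20 at level most above and most below (the probe set with the largest difference), listed genes past 0.5, the 3 members with the largest difference of each list, and the 10 brightest genes. A listed gene is read by its brightest probe set. The comparison, the 17 lists (362 genes, 48 measured) and the families were chosen with earlier results of these data known; the families' search terms were corrected after their values were seen, and other genes named were chosen after their values were seen. The alternatives tried were other sizes of difference, filters on dim probe sets, scalings (lowess in statsmodels 0.14.6) and probe set rules.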

Additional observations from a re-analysis of the deposited data

How the results depend on the processing

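The counts of 15 higher and 10 lower probe sets were 16 and 11 after quantile normalization again, 16 and 10 with a lowess curve on the level (fraction 0.4), 15 and 11 with median centring, and 15 and 10 with no filter on dim probe sets. With both air arrays required at level the lower count was 5, and it was 5 without probe sets marked i, f or r, an alternative chosen after seeing the data; the higher count was 15 in both. A difference of 0.58 counted 84 higher and 86 lower, and 1.5 counted 2 and 4, by construction. Of 123 recomputed values of named genes, 120 moved by less than the SD of 0.27, and 0 changed sign among called values. Those 120 all rescale the same 2 arrays, so they hold no variation between samples. The rest used the mean of a gene's probe sets, possible only for genes with several, and each moved by more than the SD. With that mean AT4G20820 was at 0.40, AT3G09440 at −0.84 and AT4G24340 at −0.73. With members at level only, the low-oxygen median was 1.16 and the heat shock median −0.63. The median difference at level moved by at most 0.01 under the scalings, and the share of probe sets above 0 ran from 43.5% to 51.7%. No paired analysis was possible because each time in air has 1 array, and for that reason no array could be left out. The planned search for promoter motifs was not run, as promoter sequences were not used here. Detection calls were not used here, so readings under the array's median of 5.13 limit the dim genes most.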

Other observations

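Gene families found by their symbols give values beyond the lists, each family with at least 5 measured members. Among 22 UDP-glycosyltransferases, which attach sugars to small molecules, UGT84A3 was higher by 0.51 (7.31 and 7.81), GT72B1 lower, at −0.55 (6.27 and 5.73), and the median was 0.00148. Among 15 serine carboxypeptidase-like genes scpl46 was higher by 0.65 and the median was 0.02. Of the 18 MADS-box factors 6 were at level, and 0 of these differed by 0.5 or more, beside 5.67% of all probe sets at level. AGL36 was the furthest, at 0.49. Of the 8 WRKY factors WRKY47 was the furthest, at −0.46, with a median of −0.01. The 7 expansins had a median of −0.05, EXPA8 included, and the 6 xyloglucan endotransglucosylases 0.17. Of 9 beta-glucosidases, 5 were below 0 and 3 above, beside 49.0% and 45.1% of all probe sets at level. Only 3 of the 9 were at level, so most of these signs come from dim readings. The 7 dehydrins and LEA proteins ranged from −0.22 (LEA4-5) to 0.21 (AT2G44060).

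LYC, which encodes lycopene cyclase of carotenoid synthesis, was higher in air at 240 min by 0.40 and 0.43 at its 2 probe sets. YAB3, a gene of leaf polarity, was lower at its 2 probe sets at level, at −0.53 and −0.48, and differed by 0.22 at a dim one. Both were chosen after their values were seen.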
